A study of Mus musculus with 6 samples.

Results

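The Hox cluster genes of the mouse were read on 6 whole-transcript arrays of sorted bone marrow cells. A gene was taken where a probe set of the deposited table carried a single gene symbol made of Hox, a cluster letter from a to d and a paralogue number. That rule found 37 Hox cluster genes, 10 in cluster a and 9 each in clusters b, c and d, among 19934 genes tested. Each was measured by 1 probe set. Hoxb8 had only a probe set whose annotation also names Hoxb7, which was kept out.

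Hox genes encode transcription factors with a DNA-binding homeodomain and lie side by side in 4 clusters on different chromosomes. Genes that occupy the same place in different clusters are called paralogues and share a number, and low numbers are expressed early and towards the head of the embryo while high numbers mark its rear. In blood formation, genes of clusters a and b are used in stem and progenitor cells and are shut off as cells mature, and Hoxa9 with its cofactor Meis1 is a well known pair in acute myeloid leukaemia.

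All cells came from a transplantation model of chronic myeloid leukaemia, labelled C57BL/6 (B6) in strain and 8 weeks in age. Donor marrow pretreated with 5-fluorouracil was transduced by retrovirus and placed in B6 recipients, and GFP-positive Lin-c-Kit+Sca-1+ marrow cells were sorted 14 days later, per the labels' protocols. HSC denotes such cells with the GFP vector and no BCR-ABL, from WT donors. LSC denotes cells carrying BCR-ABL, the fusion kinase of this leukaemia, from WT donors, and Alox5-/- LSC cells carrying BCR-ABL from donors without Alox5, the gene of arachidonate 5-lipoxygenase. Each group had 2 arrays numbered as biological replicates, with the number of animals behind each array not stated, so p-values measure only the spread between these arrays. The gate holds progenitors as well as stem cells, and the vector cells analysed here came from WT donors alone.

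Each probe set has 1 deposited score per array, of unstated unit and direction. Scores ran from 0 to 62.1, and on single arrays 33.5% to 53.7% of them lay above 16, the ceiling of log2 for a 16-bit scan. Array medians lay between 14.5 and 16.4, and each was subtracted from its array, so a centred score of 0 is that array's median. As a check of direction, the median score over 174 probe sets of ribosomal protein and other housekeeping genes was 11.1 (quartiles 6.5 and 17.8), under the 16.1 of 1034 olfactory receptor probe sets (quartiles 14.1 and 18.2). A higher score can therefore not be read as more RNA. All differences below are differences of score, without folds, and no gene's level is set against another's. Fewer cells of a type and less RNA per cell cannot be told apart in such samples. For Alox5, Alox5-/- LSC minus LSC was 0.67 ± 1.99 (SE; limma unadjusted p = 0.747), and its HSC arrays stood at -2.94 and 3.52. This checks neither genotype nor label, because the score's direction is unstated and probes can lie outside the disrupted part. The gate gene Kit stood at -2.94 and -0.96 in HSC, -4.32 and -0.99 in LSC, and -4.20 and -3.92 in Alox5-/- LSC. Its LSC arrays overlapped both other groups, while those of HSC and Alox5-/- LSC did not overlap, as for 34.9% of all genes. Alox5-/- LSC minus HSC was -2.11 ± 1.38 (limma unadjusted p = 0.171). Ly6a was not analysed here.

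The clusters also hold microRNA genes, and 6 of them had a probe set, which reads the gene and not 1 mature arm. The 5′ arms of 5 of these genes are shown from RefSeq (GRCm38.p6) because they fall into 2 seed families that repeat across clusters, as the protein genes do. Capitals mark the seed, bases 2 to 8.
mmu-miR-10a-5p: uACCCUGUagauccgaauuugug
mmu-miR-10b-5p: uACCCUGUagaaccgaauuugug
mmu-miR-196a-5p: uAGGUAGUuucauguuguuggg
mmu-miR-196b-5p: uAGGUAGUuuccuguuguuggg
Both miR-10 arms share the seed ACCCUGU and both miR-196 arms the seed AGGUAGU. Counted from the 5′ end, miR-10b differs from miR-10a by U12A and miR-196b from miR-196a by A12C. Mir10a lies in cluster b (chr11:96317186-96317208, plus strand) and Mir10b in cluster d (chr2:74726074-74726096, plus strand). The miR-196a arm is made from Mir196a-1 in cluster b and Mir196a-2 in cluster c, and Mir196b lies between Hoxa9 and Hoxa10 in cluster a (chr6:52230129-52230150, minus strand).

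Promoter windows of 250 bases before a start were found for 21 of the 37 genes, with 23 starts in all. Those of Hoxa10 and Hoxa5 are shown (RefSeq, GRCm38.p6, minus strand, written 5′ to 3′ on the gene's strand), since these genes had an unadjusted p under 0.05 in a comparison below. The starts of Hoxa10 follow chr6:52234940-52235189 and chr6:52240855-52241104, that of Hoxa5 chr6:52204588-52204837. Capitals mark the single match to the motifs searched, the letters TATAAA read on the opposite strand. The match lies nearer the far end of its window than the gene's start, and its use as a TATA box was not tested.
Hoxa10 start nearer Hoxa9: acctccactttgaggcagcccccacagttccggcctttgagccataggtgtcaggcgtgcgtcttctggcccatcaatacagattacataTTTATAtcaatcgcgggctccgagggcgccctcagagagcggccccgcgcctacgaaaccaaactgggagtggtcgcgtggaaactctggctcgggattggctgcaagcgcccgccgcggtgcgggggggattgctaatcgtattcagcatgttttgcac
Hoxa10 start farther from Hoxa9: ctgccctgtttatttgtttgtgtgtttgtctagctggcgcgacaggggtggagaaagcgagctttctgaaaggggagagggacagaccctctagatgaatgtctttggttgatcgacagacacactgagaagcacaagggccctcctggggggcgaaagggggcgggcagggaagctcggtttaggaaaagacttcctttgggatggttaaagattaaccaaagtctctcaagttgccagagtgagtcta
Hoxa5: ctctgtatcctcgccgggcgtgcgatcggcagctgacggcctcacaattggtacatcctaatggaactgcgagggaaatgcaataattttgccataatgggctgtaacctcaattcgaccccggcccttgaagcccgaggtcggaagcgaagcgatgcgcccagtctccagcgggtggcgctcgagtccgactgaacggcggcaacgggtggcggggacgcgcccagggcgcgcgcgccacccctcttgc
The Hoxa10 window nearer Hoxa9 was 59.2% G or C with 20 CG dinucleotides, the farther one 51.6% with 7, and the Hoxa5 window 63.6% with 28. Over the 23 Hox windows the median was 59.2% G or C and 13 CG dinucleotides, beside 52.4% and 6 over all 32851 windows of the table. On either strand, TATAAA stood in 3 of 23 Hox windows (beside 12.4% of all windows), those of Hoxa10, Hoxd13 and Hoxd4. The MEIS motif TGACAG stood in 2 (beside 15.9% of all windows), those of Hoxa2 and Hoxa3. The PBX-HOX motif TGATNNAT stood in 3 (beside 7.7% of all windows), those of Hoxa2, Hoxb1 and Hoxd11. The windows shown held 1 match in all, so none overlapped.

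**Figure D1:**
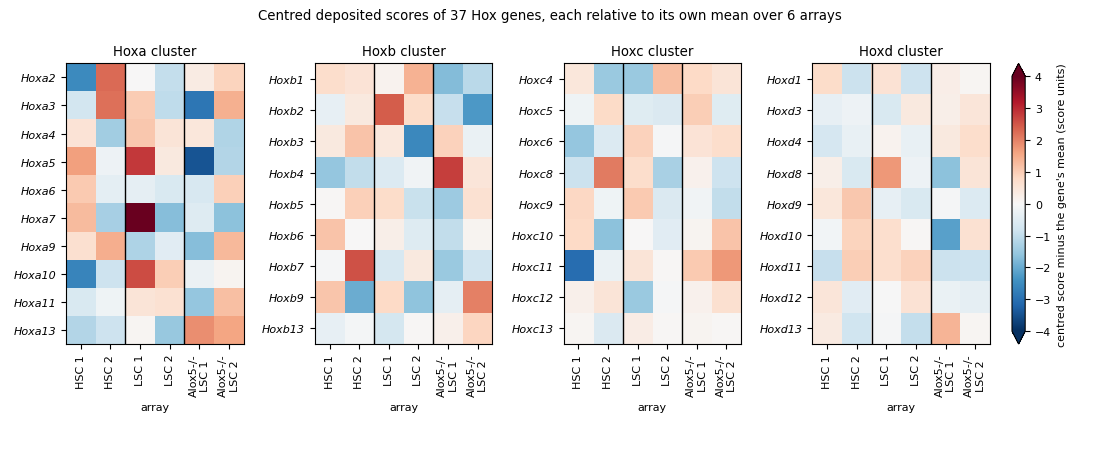
Centred score of each of 37 Hox genes minus the gene's own mean over 6 arrays (colour, score units), with genes in rows by cluster and paralogue number and arrays in columns by group. The largest single departures were those of Hoxa7 and Hoxa5 in cluster a, which ranged over 5.67 and 6.30 units, while no Hoxd gene ranged over more than 3.40.

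The first comparison, LSC against HSC, addressed what BCR-ABL goes with in these cells. No Hox gene passed correction over all genes. The lowest p belonged to Hoxa10, a posterior gene of cluster a that is known to regulate progenitor growth, with higher scores in LSC. It stood at -3.08 and -1.27 in HSC, 2.18 and 0.55 in LSC, and -0.69 and -0.32 in Alox5-/- LSC. Both LSC arrays lay above both HSC arrays, with the Alox5-/- LSC arrays between them. LSC minus HSC was 3.54 ± 1.17 (SE; 95% interval 0.76 to 6.31; limma unadjusted p = 0.0196, adjusted p = 0.944). Leaving out LSC replicate 1 gave 2.72 with an unadjusted p of 0.106 in limma, leaving out HSC replicate 1 gave 2.64 with 0.113, and uncentred values gave 3.06 with 0.0566. An exact permutation test of 2 arrays against 2 cannot go below p = 0.333, so none is given.

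Hoxa10 was the only member, 1 of 37 (2.7%), whose LSC minus HSC had an unadjusted limma p under 0.05, where 5.14% of all genes had one (2.02% higher and 3.12% lower). The members' share lies under that background. No gene of any kind passed at an adjusted p under 0.05 in this or the other comparisons by limma (0 of 19934), while 1024 genes had an unadjusted p under 0.05 here. Differences ran from -1.89 for Hoxa9 to 3.54 for Hoxa10, with a median of 0.13 beside 0.01 over all genes, and 20 of 37 (54.1%, beside 50.2% of all genes) were above 0. LSC and HSC arrays did not overlap for 11 members (29.7%), against 34.7% of all genes. Of these, 7 were higher in LSC (18.9%, beside 17.5%; Hoxa10, Hoxa11, Hoxb2, Hoxb4, Hoxc6, Hoxc11 and Hoxd4) and 4 lower (10.8%, beside 17.2%; Hoxa9, Hoxc5, Hoxc12 and Hoxd9).

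Genes with known roles in blood stem cells had intervals that span 0. Hoxa9, which sustains stem cell renewal, stood at 7.46 and 8.29 in HSC, 5.60 and 6.37 in LSC, and 5.12 and 8.14 in Alox5-/- LSC. Its HSC scores lay above its LSC scores, and the Alox5-/- LSC arrays reached from the lowest value of all to near the HSC level. LSC minus HSC was -1.89 ± 1.44 (95% interval -5.28 to 1.50; limma unadjusted p = 0.229). Hoxb4, known for expanding stem cells when overexpressed, stood at 0.44 and 1.00 in HSC, 1.43 and 1.86 in LSC, and 4.76 and 2.48 in Alox5-/- LSC. The 3 groups did not overlap and were ordered HSC, LSC, Alox5-/- LSC, but LSC minus HSC was 0.93 ± 1.23 (95% interval -1.98 to 3.83), under its SE. How many of all genes have 3 such separate groups was not counted. Hoxb5, a marker of long-term stem cells, lay between -1.57 and 0.83 on all 6 arrays, with each group overlapping the others, and differed by -0.58 ± 1.23.

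Hoxa7 and Hoxa5, both active in myeloid progenitors, rested on single arrays. Hoxa7 stood at 6.50 and 3.90 in HSC, 9.18 and 3.52 in LSC, and 4.71 and 3.59 in Alox5-/- LSC. Its 2 LSC arrays were the highest and the lowest of all 6, so the difference of 1.15 ± 2.03 carried the widest interval of any member (-3.66 to 5.96), and it was -1.68 without LSC replicate 1 and -0.15 without HSC replicate 2. Hoxa5 differed by 0.90 ± 1.52, and by -0.32 without LSC replicate 1 and -0.02 without HSC replicate 2. Hoxb3, whose loss together with Hoxb4 blunts stem cell growth, stood at 7.28 and 8.04 in HSC and 7.32 and 4.33 in LSC, and the difference of -1.84 ± 1.45 came down to -0.34 without LSC replicate 2. Hoxb6, expressed in early myeloid cells, differed by -0.72 ± 1.14. Hoxb7 had the third lowest difference at -1.37 ± 1.34, and it was -0.07 without HSC replicate 2. Hoxc11 (1.95 ± 1.21) and Hoxb2 (1.55 ± 1.23) had the highest differences after Hoxa10, but Hoxc11 was 0.56 without HSC replicate 1 and Hoxb2 0.72 without LSC replicate 1.

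**Figure D2:**
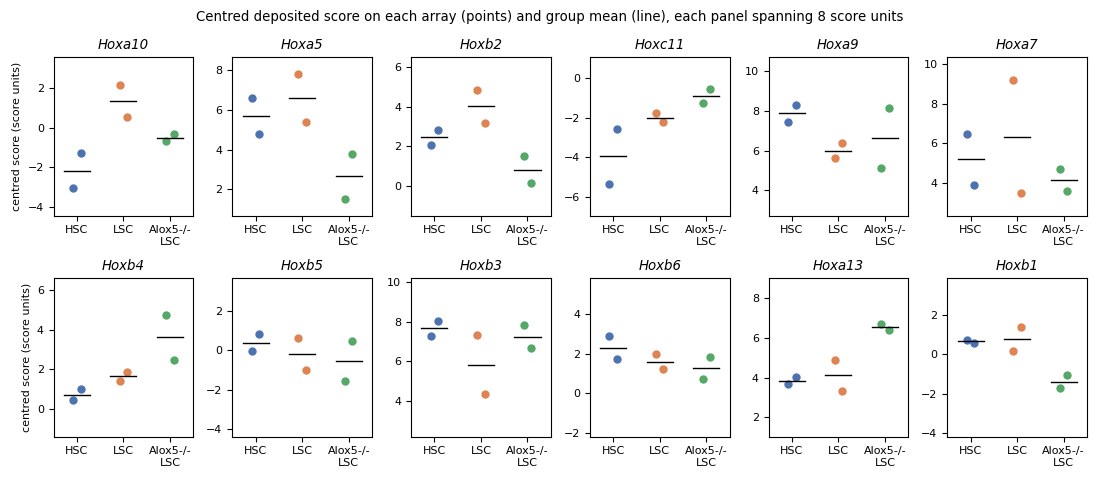
Centred score (score units) of 12 Hox genes on each array, as points by group with the group mean as a line (n = 2 arrays a group). Each panel spans 8 units, so Hoxa10, Hoxb2, Hoxb4 and Hoxc11 show 3 groups that do not overlap while the LSC arrays of Hoxa7 lie at opposite ends. The share of all genes whose 3 groups do not overlap was not counted.

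By cluster, the median of LSC minus HSC was 0.59 for cluster a, -0.12 for b, 0.18 for c and 0.17 for d. By place along the clusters it was -0.06 over 7 anterior genes (numbers 1 to 3), 0.39 over 14 central genes (4 to 8) and 0.10 over 16 posterior genes (9 to 13). These medians have no test. For a single Hox gene the median SE was 1.21, and its interval reached a median of 2.85 units to either side. Over the 37 genes the median score on an array was 1.05 and 1.16 in HSC, 2.11 and 1.22 in LSC, and 0.51 and 1.68 in Alox5-/- LSC. LSC replicate 1 lay above all others, and the Alox5-/- LSC arrays reached from the lowest value to the next to highest. The SD of this array median within groups was 0.599 (pooled over 3 groups of n = 2), above the members' median difference of 0.13. LSC replicate 1 was the highest array for 9 members and HSC replicate 2 for 10, while Alox5-/- LSC replicate 1 was the lowest for 11. The same counts were not made over all genes, so they are not read as a trait of Hox genes.

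Among BCR-ABL cells, those of Alox5-/- donors were next set against those of WT donors. It shares the LSC arrays with the first, so a low or high LSC value moves both in opposite directions. Again no Hox gene passed correction. Hoxa5 and Hoxb2 had lower scores in Alox5-/- LSC at an unadjusted limma p under 0.05, and no member had higher ones. That is 2 of 37 (5.41%), beside 3.99% of all genes in either direction and 1.99% with lower scores.

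Hoxa5, a central gene of cluster a, stood at 6.61 and 4.77 in HSC, 7.81 and 5.37 in LSC, and 1.51 and 3.80 in Alox5-/- LSC. Both Alox5-/- LSC arrays lay below the other 4. Alox5-/- LSC minus LSC was -3.94 ± 1.52 (SE; 95% interval -7.53 to -0.35; limma unadjusted p = 0.0357, adjusted p = 1.00). Without LSC replicate 1 it was -2.72 (limma unadjusted p = 0.193) and without Alox5-/- LSC replicate 1 it was -2.80 (unadjusted p = 0.172). Hoxb2, an anterior gene known for patterning the hindbrain, stood at 2.09 and 2.84 in HSC, 4.86 and 3.18 in LSC, and 1.50 and 0.14 in Alox5-/- LSC. Its groups did not overlap, with LSC highest and Alox5-/- LSC lowest. The difference was -3.20 ± 1.23 (95% interval -6.10 to -0.30; limma unadjusted p = 0.0351, adjusted p = 1.00). It was -2.36 without LSC replicate 1 (limma unadjusted p = 0.172) and -2.52 without Alox5-/- LSC replicate 2 (unadjusted p = 0.154).

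Higher scores in Alox5-/- LSC reached at most 2.45 ± 1.21 for Hoxa13, a gene of digit and urogenital development (95% interval -0.41 to 5.30; limma unadjusted p = 0.0821). Hoxa13 stood at 3.67 and 4.01 in HSC, 4.91 and 3.32 in LSC, and 6.70 and 6.42 in Alox5-/- LSC, where both arrays lay above the other 4. Hoxb4 followed at 1.97 ± 1.23 and was 0.83 without Alox5-/- LSC replicate 1. Hoxb3 came next at 1.41 ± 1.45 and was -0.09 without LSC replicate 2. Hoxa7 had the third lowest difference, -2.20 ± 2.03, which was 0.64 without LSC replicate 1 and reached an unadjusted p under 0.05 in limma without LSC replicate 2. Hoxa10 differed by -1.87 ± 1.17, Hoxa9 by 0.65 ± 1.44, Hoxb5 by -0.35 ± 1.23 and Hoxb6 by -0.30 ± 1.14. Hoxa9 was -0.87 without Alox5-/- LSC replicate 2.

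Over the members the median of Alox5-/- LSC minus LSC was 0.18 beside 0.11 over all genes, and 19 of 37 (beside 53.4% of all genes) lay above 0. Cluster medians were -0.74 for a, -0.30 for b, 0.78 for c and 0.18 for d. The arrays of the 2 groups did not overlap for 18 members (48.6%), against 32.1% of all genes, with 10 higher (27.0%, against 17.5%) and 8 lower (21.6%, against 14.6%). The 10 were Hoxa2, Hoxa13, Hoxb4, Hoxb13, Hoxc5, Hoxc10, Hoxc11, Hoxc12, Hoxd4 and Hoxd13, and the 8 were Hoxa4, Hoxa5, Hoxa10, Hoxb1, Hoxb2, Hoxb7, Hoxd11 and Hoxd12. Of these 18, Hoxa5 and Hoxb2 alone had an unadjusted limma p under 0.05.

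**Figure D3:**
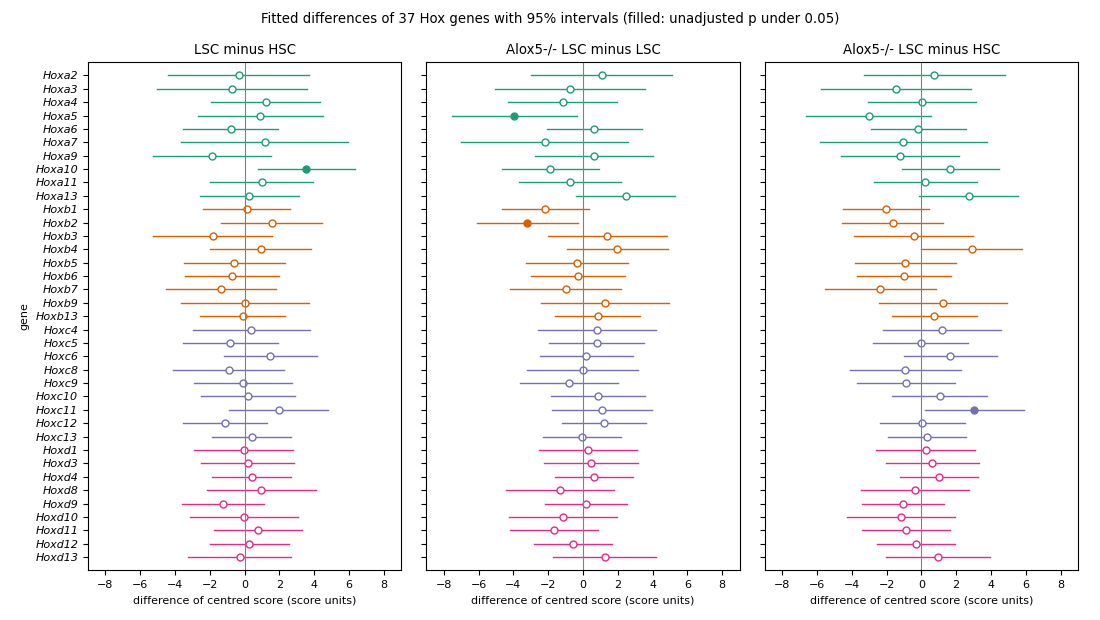
Fitted difference of centred score (score units) for each of 37 Hox genes in 3 comparisons, as points with 95% intervals from limma, coloured by cluster. Filled points have an unadjusted p under 0.05 (Hoxa10, then Hoxa5 and Hoxb2, then Hoxc11), and every other interval spans 0.

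Alox5-/- LSC against HSC shares arrays with both comparisons above. Hoxc11, a posterior gene of cluster c, was the only member with an unadjusted limma p under 0.05 (1 of 37, 2.7%, beside 5.91% of all genes, 2.61% with higher and 3.3% with lower scores). It stood at -5.33 and -2.56 in HSC, -1.77 and -2.22 in LSC, and -1.24 and -0.56 in Alox5-/- LSC. The 3 groups did not overlap, and HSC replicate 1 lay far below the other arrays. Alox5-/- LSC minus HSC was 3.04 ± 1.21 (95% interval 0.19 to 5.89; limma unadjusted p = 0.0396, adjusted p = 0.824). It was 1.66 without HSC replicate 1 (limma unadjusted p = 0.235) and 2.16 without centring (unadjusted p = 0.159).

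The next highest differences were those of Hoxb4 (2.89 ± 1.23; limma unadjusted p = 0.0509) and Hoxa13 (2.72 ± 1.21; unadjusted p = 0.059). The lowest were those of Hoxa5 (-3.04 ± 1.52), Hoxb7 (-2.36 ± 1.34) and Hoxb1 (-2.03 ± 1.06). Without Alox5-/- LSC replicate 1, Hoxb4 was 1.76 and Hoxa5 -1.89, and without HSC replicate 2 Hoxb7 was -1.06. Hoxb1, which specifies a hindbrain segment, stood at 0.71 and 0.57 in HSC, 0.16 and 1.39 in LSC, and -1.72 and -1.06 in Alox5-/- LSC. Its Alox5-/- LSC arrays lay below the other 4, with Alox5-/- LSC minus LSC at -2.16 ± 1.06 (limma unadjusted p = 0.0799). Hoxa10 differed by 1.67 ± 1.17, Hoxa9 by -1.24 ± 1.44, Hoxa7 by -1.05 ± 2.03, Hoxb3 by -0.43 ± 1.45, Hoxb5 by -0.93 ± 1.23 and Hoxb6 by -1.02 ± 1.14. The median over members was -0.04 beside 0.10 over all genes, 18 of 37 (beside 52.8% of all genes) lay above 0, and arrays did not overlap for 14 (37.8%, against 34.9%). Over the 3 comparisons, 4 of 111 member tests had an unadjusted limma p under 0.05, and the smallest adjusted p was 0.824. Of all genes, 5.14%, 3.99% and 5.91% had such an unadjusted p in the 3 comparisons in order.

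Hox scores varied less from array to array than those of the typical gene. The range over 6 arrays had a median of 2.76 units for the members and 3.66 for all genes, and the SD within groups a median of 0.97 against 1.30. A range under the all-gene median was found for 26 of the 37 genes, and for 9 of 9 in cluster d, where the median range was 1.71 and the median absolute difference between LSC and HSC 0.28, against 4.10 and 0.94 in cluster a. The narrowest range was that of Hoxc13, which acts in hair and nail formation. Its scores lay between -2.67 and -1.81, a range of 0.85 units, and 0.411% of genes had a smaller one. The widest was that of Hoxa5 at 6.30 units, wider than in 83.0% of genes. The group means spread more than the replicates within a group for 14 of 37 members (37.8%), against 28.5% of all genes. The related Cdx, ParaHox and Evx homeobox genes ranged over 1.81 units (Cdx4) to 4.04 (Gsx1), so low ranges were not particular to Hox genes. These are descriptions without a test.

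**Figure D4:**
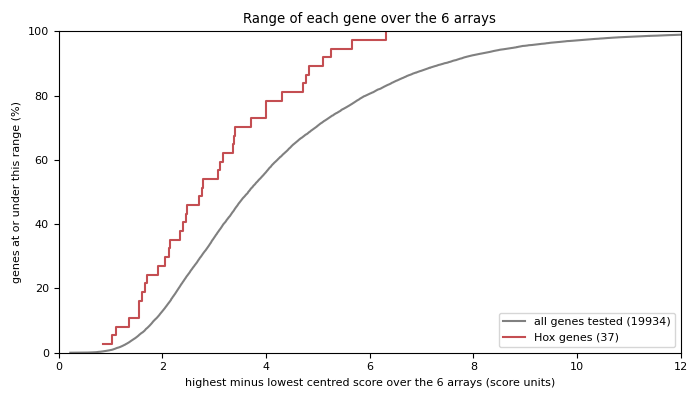
Share of genes (%) whose highest minus lowest centred score over the 6 arrays lies at or under the value on the x axis (score units), for 37 Hox genes and for 19934 genes tested. The Hox curve lies to the left for most of its course, with medians of 2.76 and 3.66 units.

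Correlations between Hox genes centred near 0 in every class of pair. Pearson's r over the 6 arrays, read as a description since every pair shares the same arrays, had a median of 0.07 over 33 neighbouring pairs and 0.00 over 120 other pairs of the same cluster. It was 0.08 over 38 pairs of paralogues with the same number and 0.02 over 475 remaining pairs. Over 19893 pairs of neighbouring genes across the genome the median was 0.02. Neighbours are measured genes in order of RefSeq start, so Hoxb3 fell between Hoxb5 and Hoxb4, Hoxd3 between Hoxd8 and Hoxd4, and Hoxb7 beside Hoxb9. Pairs such as Hoxb2 with Hoxb3, adjacent by paralogue number, were thus counted among the other pairs.

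**Figure D5:**
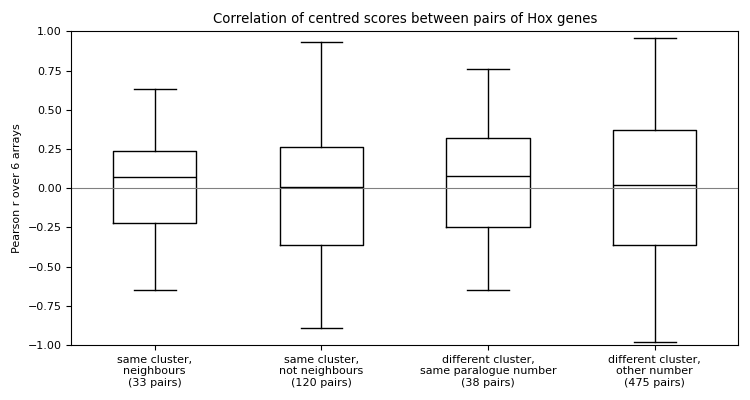
Pearson r of centred scores over 6 arrays for 666 pairs of Hox genes in 4 classes (box, quartiles with the median as a line; whiskers, full range). Every box spans 0, with medians from 0.00 to 0.08.

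Noncoding transcripts inside the clusters had 9 of 14 listed genes measured, and 0 had an unadjusted limma p under 0.05 in any comparison. Mir196b stood at -0.58 and -0.64 in HSC, 1.87 and -1.67 in LSC, and 1.89 and 0.98 in Alox5-/- LSC, and Alox5-/- LSC minus HSC was 2.05 ± 1.39. The other seed family gave LSC minus HSC of 0.01 ± 1.60 for Mir10a and -1.54 ± 1.11 for Mir10b. Mir196a-1 and Mir196a-2, which share a mature arm, differed by 1.00 ± 1.54 and 0.14 ± 0.96. Hottip, a transcript beside Hoxa13, differed by 0.00 ± 1.03 for LSC minus HSC and by 0.55 ± 1.03 for Alox5-/- LSC minus LSC. The Cdx, ParaHox and Evx genes, upstream and sister homeobox genes, had 8 of 8 measured and 0 with an unadjusted limma p under 0.05. The retinoic acid genes, whose signal induces Hox genes, had 11 of 12 measured and likewise 0.

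Among the partner proteins, Meis1 had lower scores in both BCR-ABL groups. Meis1, a TALE homeodomain protein that binds DNA with Hoxa9, stood at 4.36 and 3.98 in HSC, -0.52 and 0.77 in LSC, and -0.79 and -2.36 in Alox5-/- LSC. Neither HSC array overlapped any BCR-ABL array. LSC minus HSC was -4.04 ± 1.16 (SE; limma unadjusted p = 0.0101) and Alox5-/- LSC minus HSC -5.75 ± 1.16 (unadjusted p = 0.00162), and neither passed correction over all genes. Leaving out 1 array gave -4.69 to -3.40, with unadjusted p up to 0.0637, and -6.53 to -4.96. It was the only 1 of 8 measured cofactors at an unadjusted p under 0.05 in limma in these comparisons. Of all genes, 5.14% had such a p in LSC against HSC and 5.91% in Alox5-/- LSC against HSC. Of its relatives, Meis2 differed by 1.57 ± 1.14, Pbx3 by 0.65 ± 1.62 and Pbx2 by -1.35 ± 1.37 for LSC minus HSC.

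Genes listed here as activators of Hox clusters, most of them chromatin regulators, had 20 of 20 measured. In LSC against HSC, 2 were lower (beside 3.12% of all genes) and 0 higher (beside 2.02%) at an unadjusted limma p under 0.05. These were the histone acetyltransferase Kat6a (-3.44 ± 0.98) and the nucleolar chaperone Npm1 (-2.64). Kat6a ranged from -3.48 to -3.39 when 1 array was left out and Npm1 from -3.49 to -1.80, where Npm1 kept that p in 1 of 6 cases. In Alox5-/- LSC against LSC, where 3.99% of all genes had such a p, there were 1 higher, Men1, the menin scaffold of the Kmt2a complex (3.05 ± 1.25), and 1 lower, the H3K27 demethylase Kdm6a (-5.85 ± 1.51). Men1 stood at -4.01 and -2.38 in HSC, -2.25 and -2.41 in LSC, and 2.03 and -0.59 in Alox5-/- LSC, and the difference from LSC was 1.74 without Alox5-/- LSC replicate 1. Against HSC, where 5.91% of all genes had such a p, Men1 was again higher in Alox5-/- LSC (3.91 ± 1.25) and the H3K4 methyltransferase Kmt2b lower (-4.15 ± 1.74). Without Alox5-/- LSC replicate 1 Men1 was 2.60 (limma unadjusted p = 0.101), and without HSC replicate 2 Kmt2b was -3.52 (unadjusted p = 0.165). Kmt2a and Dot1l, methyltransferases that keep Hoxa9 active, differed by 1.29 ± 1.37 and 0.49 ± 1.26 for LSC minus HSC and by -0.14 ± 1.37 and -0.58 ± 1.26 for Alox5-/- LSC minus LSC.

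Polycomb genes, whose products silence Hox clusters, had 18 of 20 measured. Of these, Pcgf1 (-7.66 ± 2.43) and Asxl1 (-3.69 ± 1.32) were lower in LSC than in HSC at an unadjusted limma p under 0.05 and 0 were higher, beside 5.14% of all genes. In Alox5-/- LSC against LSC 0 had that p, beside 3.99%. Without HSC replicate 1, Asxl1 was -2.77 (limma unadjusted p = 0.133). In Alox5-/- LSC against HSC, Pcgf1 (-8.87 ± 2.43) and Ezh1 (-5.27 ± 1.55) were lower and Bmi1 higher (4.05 ± 1.47), 3 of 18 beside 5.91% of all genes. Without Alox5-/- LSC replicate 1 Bmi1 was 2.36 (limma unadjusted p = 0.161). Without HSC replicate 2 Pcgf1 was -5.07, and without HSC replicate 1 Ezh1 was -3.29. Leaving out Alox5-/- LSC replicate 2 gave an unadjusted limma p of 0.0511 for Pcgf1 and 0.0633 for Ezh1. Pcgf1 stood at -0.88 and 6.72 in HSC, -5.83 and -3.63 in LSC, and -4.52 and -7.37 in Alox5-/- LSC. The HSC arrays lay far from each other, and without HSC replicate 2 LSC minus HSC was -3.86. Ezh2, the main H3K27 methyltransferase, differed by 0.45 ± 1.19 for LSC minus HSC. Of 16 blood targets and partners, Gfi1 was higher in Alox5-/- LSC than in LSC (3.10 ± 1.20) and Erg higher than in HSC (3.62 ± 1.43) at that p, and 0 had one in LSC against HSC. Gfi1 was 2.38 without Alox5-/- LSC replicate 2 (limma unadjusted p = 0.156) and Erg 2.17 without Alox5-/- LSC replicate 1 (unadjusted p = 0.204).

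Markers of other blood and stromal cell types differed between the groups as well, without a common direction within most lists. Of 34 measured, 6 had lower (beside 3.12% of all genes) and 2 higher scores (beside 2.02%) in LSC than in HSC at an unadjusted limma p under 0.05. In Alox5-/- LSC against LSC 3 were higher (beside 2.0%) and 1 lower (beside 1.99%), and against HSC 1 higher (beside 2.61%) and 3 lower (beside 3.3%). The B cell receptor chain Cd79a stood at 8.19 and 11.80 in HSC and 1.41 and -1.65 in LSC, whereas its partner Cd79b differed by 2.07 ± 1.31 the other way. Among 6 macrophage markers 3 lay above 0 for LSC minus HSC, with C1qb at -6.44 ± 1.28 and C1qa at 5.84 ± 2.63. The higher markers were the megakaryocyte genes Itga2b (4.11 ± 1.29) and Pf4 (3.60 ± 1.46). The remaining megakaryocyte markers, Gp9 (-1.26 ± 1.32) and Vwf (-0.61 ± 0.95), differed the other way.

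Per array, the median over 6 macrophage markers lay at 1.87 and 2.14 in HSC, 0.48 and 0.26 in LSC, and 0.82 and 1.87 in Alox5-/- LSC. Over 4 megakaryocyte markers it lay at -1.72 and -1.83 in HSC, 0.72 and -0.16 in LSC, and -0.05 and -0.86 in Alox5-/- LSC. Over 3 mast cell and basophil markers it lay at 5.73 and 1.42 in HSC, -2.76 and -0.32 in LSC, and -0.82 and 0.45 in Alox5-/- LSC, and over 4 B cell markers between -1.84 and -0.65 on all arrays. Of 5 stem cell markers, Slamf1 (5.79 ± 1.33) and Procr (4.17 ± 1.22) had higher scores in LSC than in HSC. Both had an unadjusted limma p under 0.05, as did 2.02% of all genes with higher scores. Cd34 differed by -2.96 ± 1.36 and Mecom by -3.76 ± 2.12. In Alox5-/- LSC against HSC, Slamf1 (4.33 ± 1.33) and Procr (5.88 ± 1.22) were again higher at that p, beside 2.61% of all genes. Cd34 (-2.59), Mecom (-2.91) and Hlf (-0.09) lay below 0 there. The median difference over these 5 was 0.90 for LSC minus HSC and -0.09 for Alox5-/- LSC minus HSC. No marker of another cell type passed at an adjusted p under 0.05, and their part in the Hox and Meis1 scores was not tested.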

How the data were processed

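The authors deposited 1 score per probe set and array for 6 arrays of 3 groups; tools named in the submitters' processing notes were Affymetrix Expression Console 1.1 and RMA, while the score's unit, direction and any later step are not given in the sources used here. RNA (100 to 300 ng) was amplified and biotin-labelled per the labels' protocols. Of 35557 probe sets, 34499 carried values. Symbols came from the platform annotation, and probe sets with several symbols were left out. The probe set of highest mean over arrays stood for each of 19934 genes.

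Each array's median was subtracted. limma 3.58.1 (R 4.3.3) was fitted over all 6 arrays with a mean per group, 3 residual degrees of freedom and a prior variance following the mean score. Tests were two-sided with Benjamini-Hochberg adjustment over all genes and a threshold of 0.05. The fit was tested on simulated data. The number of arrays limits the precision. Neighbours were taken in order of gene start from RefSeq (GRCm38.p6), which matched 37 of 37 members by symbol.

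Named genes were Hoxa5, Hoxa7, Hoxa9, Hoxa10, Hoxb3, Hoxb4, Hoxb5, Hoxb6 and Hoxb8, the 3 largest differences each way, members and listed regulators with an unadjusted p under 0.05, the members of widest and narrowest range, and Meis1, Kmt2a, Men1, Dot1l, Bmi1, Ezh2 and Alox5. Some items named by these rules are not reported here. Members and lists were chosen with earlier results of these data known. Alternatives covered scaling, scale, probe set choice, a filter on low scores, the prior variance, the arrays fitted, the replicate number as a block, and leaving out each array.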

Additional observations from a re-analysis of the deposited data

How the results depend on the processing

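No alternative gave a gene at an adjusted p under 0.05, and the smallest adjusted p of a Hox gene in any of them was 0.602. Counts of Hox genes at an unadjusted p under 0.05 are small and moved easily. For LSC minus HSC the count was 0 for values as deposited and 0 to 2 when leaving out 1 array. For Alox5-/- LSC minus LSC it was 1 with the replicate block, where Hoxa5 had an unadjusted p of 0.0518 in limma, and 0 to 3 when leaving out 1 array. Arrays with the same number correlated at 0.00, -0.06 and -0.06 in their deviations from group means. Pairing by number was thus not seen in the scores, and shared handling of such arrays was not tested. For Alox5-/- LSC minus HSC the count was 2 for values as deposited (Hoxa5 and Hoxb1, both lower), 2 after quantile normalization and with the mean of all probe sets (Hoxb4 and Hoxc11, both higher), 3 on the log2(score + 1) scale and with one prior variance (these and Hoxa13, higher), 0 with only the 4 arrays compared, and 0 to 1 when leaving out 1 array. Its median Hox difference was -0.92 for values as deposited. That setting shifts the median of all genes to -0.47, -0.30 and -0.78 in the 3 comparisons, and lower scores then make up 79.4% of genes at that p in LSC against HSC, against 60.7% after centring, 76.1% against 49.8% in Alox5-/- LSC against LSC and 89.4% against 55.8% in Alox5-/- LSC against HSC.

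Of 33 named differences, 0 changed sign under other settings than leaving out an array. Among those settings, only uncentred values, quantile normalization and the log2(score + 1) scale could change a sign. The rest cannot move the difference of a gene with a single probe set, so their part of the 0 was fixed in advance. Leaving out an array changed the sign of 12. For LSC minus HSC the ranges were -0.32 to 2.13 for Hoxa5, -1.68 to 3.98 for Hoxa7 and -1.40 to 0.23 for Hoxb5. For Alox5-/- LSC minus LSC they were -5.03 to 0.64 for Hoxa7, -0.87 to 2.16 for Hoxa9, -0.09 to 2.90 for Hoxb3, -1.37 to 0.68 for Hoxb5 and -0.85 to 0.25 for Hoxb6. For Alox5-/- LSC minus HSC they were -2.35 to 0.26 for Hoxa7, -2.75 to 0.27 for Hoxa9, -1.02 to 0.15 for Hoxb3 and -1.95 to 0.09 for Hoxb5. A lone array is then assumed to vary like the other groups. The cause was not tested.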
